A study of Mus musculus with 10 samples.

Results

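The 9 genes that encode the enzymes of serine synthesis and of folate one-carbon metabolism were followed through kidneys of mice that lacked Ehhadh. They were chosen by gene symbol: Phgdh, Psat1, Psph, Shmt1, Shmt2, Mthfd1, Mthfd2, Mthfd1l and Aldh1l2, 9 of the 24062 genes in the deposited count table. All 9 were found, and all 9 passed the filter on low counts. The series held 10 libraries of polyadenylated kidney RNA from adult male mice, 1 per animal. There were 4 Ehhadh knockout animals (KO), single wild-type animals of the strains DBA_2J and 129S2_SvPasCrl, and 4 wild-type animals of C57BL/6N (WT), the strain label that the KO animals also carry. Ehhadh encodes the peroxisomal L-bifunctional enzyme of fatty acid β-oxidation. The labels give no treatment, no exact age and no account of how the knockout allele was made, and whole kidney was read, so every value is an average over all its cell types. A lower transcript level from fewer cells of a type cannot be told apart from one with less RNA per cell.

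Cells make serine from 3-phosphoglycerate, an intermediate of glycolysis, and serine then gives a one-carbon unit to tetrahydrofolate as it becomes glycine. The folate steps exist in parallel sets of enzymes, one in the cytosol and one in mitochondria, and formate carries one-carbon units from the mitochondria to the cytosol for purine, thymidylate and methionine synthesis. The kidney is known as an organ that releases serine into the blood, and Mthfd2 is known for low expression in most adult tissues and high expression in embryonic and dividing cells.

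Library totals were 41.5 to 52.3 M counts in KO, 57.3 M in DBA_2J, 51.2 M in 129S2_SvPasCrl and 19.8 to 36.0 M in WT, where M is mega. Values below are counts per M with TMM scaling (CPM), where the total of a library is taken over the 15547 genes that passed the filter. They are listed in the order of replicates 1 to 4. Replicates 1 and 2 of KO and of WT have sample titles without a leading E, and replicates 3 and 4 have one, a difference the labels do not explain. The first number in the title is shared by KO replicates 1 and 2, by WT replicates 1 and 2 and by WT replicates 3 and 4. It is never shared between KO and WT, and the labels do not say what it marks. Ehhadh itself was read at 175 to 327 CPM in KO, against 2088 to 3418 CPM in WT, so each library lay on the side of its label, and at 796 CPM in DBA_2J and 788 CPM in 129S2_SvPasCrl.

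The first comparison asked whether transcripts of the enzymes that build serine differed between KO and WT. Only the first of the 3 passed the test at an adjusted p of 0.05, which is the threshold for every call below. Phgdh, which encodes phosphoglycerate dehydrogenase and commits 3-phosphoglycerate to serine, rose in KO. Levels were 25.6, 21.7, 28.5 and 25.0 CPM in KO and 12.4, 11.5, 11.2 and 15.02 CPM in WT. The lowest KO library lay above the highest WT library. Means were 25.2 ± 2.79 CPM in KO, against 12.5 ± 1.74 CPM in WT (SD, n = 4 each), a log2 fold change of 1.01 (SE 0.11, edgeR quasi-likelihood F test, adjusted p = 0.000323). The gene lies on the minus strand at chr3:98313171-98339969 in mm10, the build of all gene positions below, with 12 exon entries in the annotation used for counting.

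Psat1 (chr19:15905123-15925059, minus strand) encodes phosphoserine aminotransferase, the second enzyme. Its transcript stood at 128, 156, 71.0 and 66.3 CPM in KO and at 92.3, 63.8, 65.6 and 54.04 CPM in WT. The first 2 KO libraries stood above every WT library, and the other 2 lay inside the WT range. The log2 fold change of 0.62 (SE 0.26) did not pass (edgeR, adjusted p = 0.160), with means of 105 ± 43.9 CPM in KO, against 69.0 ± 16.4 CPM in WT. Psph (chr5:129765558-129787253, minus strand) encodes phosphoserine phosphatase, the last step, and was read at 15.8, 15.1, 12.8 and 15.4 CPM in KO and at 12.7, 13.4, 13.5 and 15.7 CPM in WT. The groups overlapped across nearly their whole ranges, and the log2 fold change was 0.10 (SE 0.10, edgeR, adjusted p = 0.572).

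The cytosolic folate enzymes were the next comparison, and neither gene passed. Shmt1 (chr11:60788897-60811265, minus strand) encodes the cytosolic serine hydroxymethyltransferase, which moves a carbon of serine to folate. Its level was 57.04, 56.6, 56.6 and 64.6 CPM in KO and 60.3, 60.0, 59.1 and 44.7 CPM in WT. The first 3 KO libraries lay just below 3 of the WT libraries, and the fourth of each group stood apart on opposite sides. The log2 fold change was 0.07 (SE 0.09, edgeR, adjusted p = 0.691). Mthfd1 (chr12:76255232-76319820, plus strand) encodes the cytosolic enzyme that joins the dehydrogenase, cyclohydrolase and formyl-tetrahydrofolate synthetase activities in 1 protein. Its levels were 237, 241, 240.5 and 262 CPM in KO and 279.9, 294, 269 and 272 CPM in WT. All 4 KO libraries lay below all 4 WT libraries, yet the log2 fold change of −0.18 (SE 0.06) missed the threshold (edgeR, adjusted p = 0.0625). It passed in DESeq2 (adjusted p = 0.0223), with upper quartile scaling (edgeR, adjusted p = 0.0297) and without KO replicate 4 (edgeR, adjusted p = 0.0344). The log2 fold change in these fits was −0.18, −0.21 and −0.21. It also passed in the animals without a leading E (−0.26, edgeR, adjusted p = 0.0274), and not in those with it (−0.11, adjusted p = 0.599).

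In mitochondria the entry enzyme fell while 2 of the 3 downstream genes rose. Shmt2 (chr10:127517123-127522444, minus strand) encodes the mitochondrial serine hydroxymethyltransferase, which feeds serine carbon into this branch. Libraries held 250.1, 262, 262 and 278 CPM in KO and 293, 310.5, 323 and 327 CPM in WT. The groups did not overlap, and the log2 fold change was −0.25 (SE 0.06, edgeR, adjusted p = 0.0204). The adjusted p of edgeR went past the threshold when one of 4 libraries was left out, to 0.0665 for KO replicate 1, 0.0550 for KO replicate 2, 0.0648 for WT replicate 3 and 0.0510 for WT replicate 4, with log2 fold changes of −0.22 to −0.27 over all 8 fits that leave out 1 library. Exons of Shmt2 share 34 bases, 1.48% of their length, with Ndufa4l2, and reads there were counted for both genes.

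Mthfd2 (chr6:83305704-83317604, minus strand) encodes the mitochondrial methylene-tetrahydrofolate dehydrogenase and cyclohydrolase. Its transcript stood at 11.2, 8.86, 9.98 and 7.08 CPM in KO and at 3.52, 3.31, 2.62 and 3.04 CPM in WT. Every KO library was above every WT library. Means were 9.27 ± 1.73 CPM in KO, against 3.12 ± 0.392 CPM in WT (SD, n = 4 each), a 2.99-fold higher level (log2 fold change 1.58, SE 0.16, edgeR, adjusted p = 0.000247). Of the 9 genes it had the largest change of level in this fit. Mthfd1l (chr10:3973075-4167081, plus strand) encodes the mitochondrial formyl-tetrahydrofolate synthetase, which releases formate. It was read at 5.16, 4.98, 5.41 and 5.66 CPM in KO and at 2.20, 1.80, 2.53 and 2.56 CPM in WT. The libraries of each group lay close together and the groups were far apart, with a 2.33-fold rise in KO (log2 fold change 1.22, SE 0.15, edgeR, adjusted p = 0.000577). Aldh1l2 (chr10:83487447-83534140, minus strand) encodes the mitochondrial formyl-tetrahydrofolate dehydrogenase, which oxidises formyl groups to CO2, and did not pass. It was read at 4.04, 4.79, 3.84 and 6.25 CPM in KO and at 4.90, 3.79, 4.32 and 3.26 CPM in WT, ranges that overlapped (log2 fold change 0.23, SE 0.19, edgeR, adjusted p = 0.488).

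**Figure D1:**
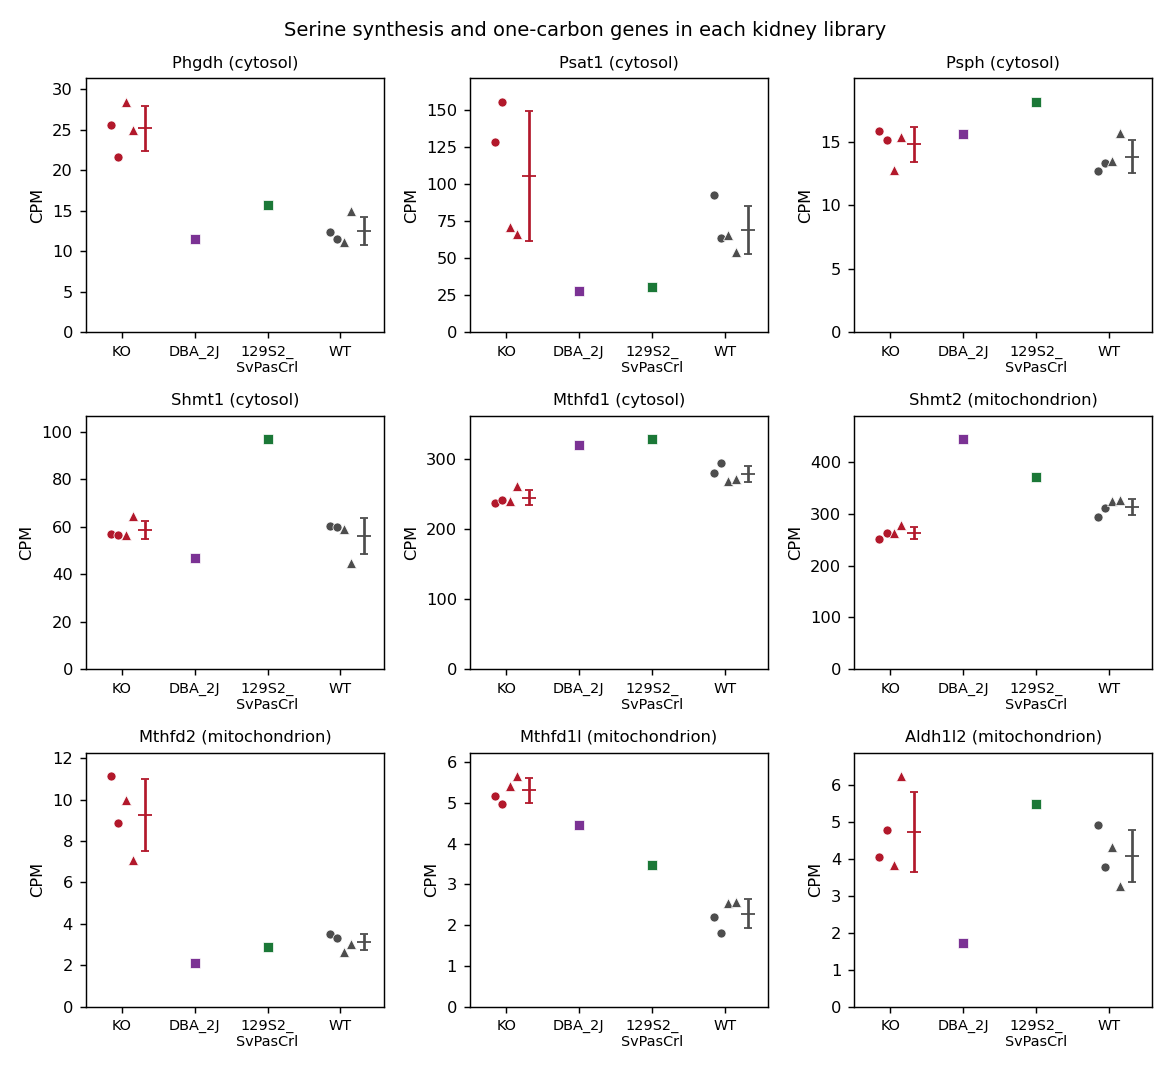
Levels of the 9 genes in CPM (linear axis from 0) in each library of KO, DBA_2J, 129S2_SvPasCrl and WT. Circles are C57BL/6N libraries whose titles lack a leading E, triangles those with one, squares the single strain libraries, and bars show mean ± SD of 4 libraries; KO and WT do not overlap for Phgdh, Mthfd1, Shmt2, Mthfd2 and Mthfd1l.

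Set side by side, 3 of the 9 genes were called higher (Phgdh, Mthfd2 and Mthfd1l), 1 was called lower (Shmt2) and 5 did not pass. Over all 15547 genes tested, 11.0% were called, 6.32% as higher and 4.68% as lower in KO. KO and WT libraries did not overlap for 5 of the 9, against 17.7% of all genes tested. The median log2 fold change was 0.23 over the 9 genes and −0.01 over all genes tested. Rises were seen in both compartments, with Phgdh in the cytosol and Mthfd2 and Mthfd1l in mitochondria, while Psat1, Psph, Shmt1 and Mthfd1 in the cytosol and Aldh1l2 in mitochondria did not pass.

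Levels of different genes were compared per kilobase of exon, as CPM per kb. In KO, Shmt2 was the most abundant of the 9 at 114 ± 5.02 CPM per kb (SD, n = 4), followed by Mthfd1 at 73.8 ± 3.39, Psat1 at 42.3 ± 17.6 and Shmt1 at 28.4 ± 1.90. The libraries of Psat1 and Shmt1 overlapped. Phgdh at 13.5 ± 1.49 stood above Psph at 9.62 ± 0.889 CPM per kb, and Mthfd2 at 4.48 ± 0.837, Mthfd1l at 1.22 ± 0.0687 and Aldh1l2 at 0.784 ± 0.181 were the lowest. The same measure in WT gave another order in 2 places. Psph at 8.99 ± 0.853 CPM per kb stood above Phgdh at 6.69 ± 0.932, and Aldh1l2 at 0.675 ± 0.117 stood above Mthfd1l at 0.525 ± 0.0823, with libraries of this last pair overlapping. The others in WT were Shmt2 at 136 ± 6.71, Mthfd1 at 83.9 ± 3.41, Psat1 at 27.7 ± 6.58, Shmt1 at 27.1 ± 3.66 and Mthfd2 at 1.51 ± 0.190 CPM per kb. Psat1 and Shmt1 again did not differ beyond the spread of their libraries. The fewest counts in any library were 242 for Phgdh, 69 for Mthfd2 and 43 for Mthfd1l, so the depth of WT replicate 1, the shallowest library, weighs most on the last.

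Summed per kb, the 4 mitochondrial folate genes came to 121 ± 4.42 CPM per kb in KO, against 139 ± 6.51 in WT (SD, n = 4 each). Shmt2 made up 93.7 to 95.4% of that sum in KO and 97.7 to 98.2% in WT. Without Shmt2 the sum of the other 3 was 6.49 ± 0.638 CPM per kb in KO, against 2.71 ± 0.212 in WT. The groups did not overlap in either sum, with the full sum lower and the sum without Shmt2 higher in KO. The 2 cytosolic folate genes summed to 102 ± 5.26 CPM per kb in KO, against 111 ± 6.00 in WT. The 3 serine synthesis genes summed to 65.4 ± 17.0 CPM per kb in KO, against 43.4 ± 5.75 in WT, with most of the spread from Psat1. KO and WT overlapped in the cytosolic folate sum and in the serine synthesis sum.

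The mitochondrial and cytosolic branches were then compared enzyme for enzyme, as the log2 ratio of the mitochondrial to the cytosolic gene within each library. The 4 ratios were tested by exact two-sided permutation of 4 against 4 libraries, and each gave p = 0.0286, the smallest this design allows and also the value adjusted over the 4. Mthfd1 stands below the line in 2 of the ratios, so they are not independent. In those 2, every KO library lay above WT for the upper gene and below WT for Mthfd1. Their p was therefore fixed by the values of the single genes and adds nothing to them. For the dehydrogenase and cyclohydrolase step, Mthfd2 per kb was 7.55, 5.89, 6.66 and 4.34% of Mthfd1 in KO and 2.02, 1.81, 1.56 and 1.79% in WT. The log2 ratio was 1.73 higher in KO (−4.74 ± 0.341 in KO and −6.47 ± 0.150 in WT, SD, n = 4 each; exact permutation p = 0.0286). For the synthetase step, Mthfd1l per kb was 1.67, 1.58, 1.73 and 1.66% of Mthfd1 in KO and 0.602, 0.469, 0.723 and 0.722% in WT, a log2 difference of 1.40. In both steps the mitochondrial gene stayed far below its cytosolic counterpart in every library, and the distance was smaller in KO.

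The serine hydroxymethyltransferase step went the other way. Shmt2 per kb was 393, 415, 415 and 386% of Shmt1 in KO and 435, 463, 490.2 and 654% in WT, a log2 difference of −0.33. The highest WT value comes from replicate 4, where Shmt1 was low, and the difference was −0.20 without that library. It was −0.50 in animals with a leading E in the title and −0.15 in those without. For the dehydrogenase that removes formyl groups, the cytosolic gene is Aldh1l1, which is not among the 9 and fell in KO (431 ± 14.3 CPM in KO, against 701 ± 36.4 CPM in WT, log2 fold change −0.70, SE 0.06, edgeR, adjusted p = 5.65e-05). Aldh1l2 per kb was 0.486, 0.546, 0.473 and 0.733% of Aldh1l1 in KO and 0.344, 0.263, 0.335 and 0.245% in WT, a log2 difference of 0.91. Of the genes in this ratio, Aldh1l1 passed the test by itself and Aldh1l2 did not. Within mitochondria, Mthfd2 per kb was 2.83 to 4.97% of Shmt2 in KO and 0.901 to 1.34% in WT.

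**Figure D2:**
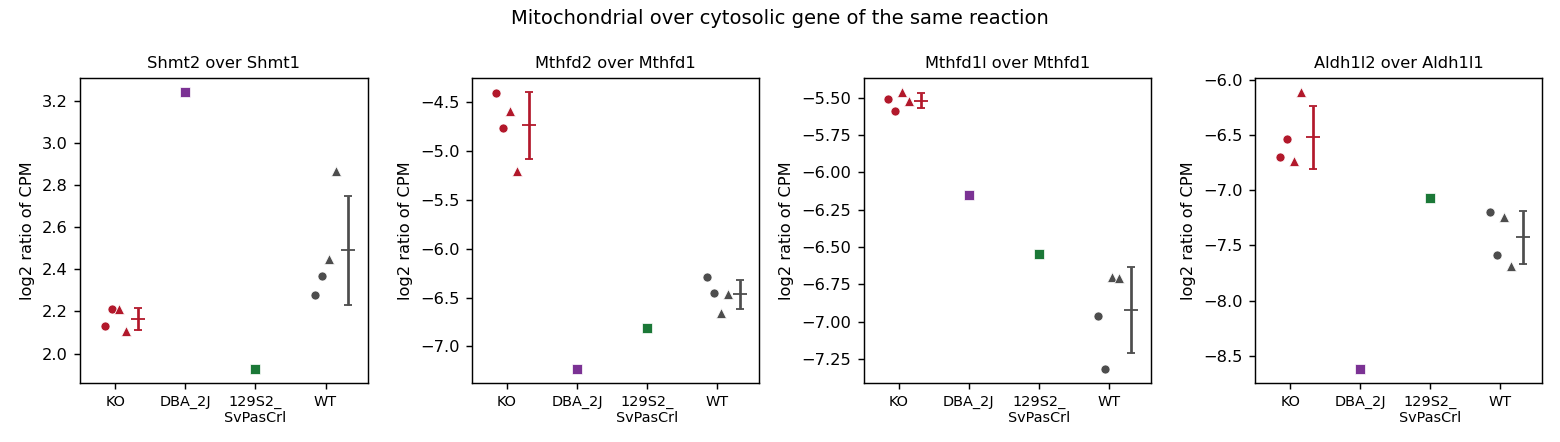
Log2 ratio of the mitochondrial over the cytosolic gene for 4 folate steps in each library, with circles for titles without a leading E, triangles for titles with one, squares for the single strain libraries and bars for mean ± SD of 4 libraries. KO and WT do not overlap in any of the 4 steps, with KO higher for Mthfd2 and Mthfd1l over Mthfd1 and for Aldh1l2 over Aldh1l1, and lower for Shmt2 over Shmt1.

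The sequences around the gene starts are shown for the 3 genes that rose and for Shmt2, which fell, so that their upstream regions can be read side by side. Each runs from 250 bases before to 50 bases after the start of the gene on its own strand, from RefSeq on GRCm38.p6, and capitals mark CCAAT and GGGCGG on either strand (ATTGG and CCGCCC where they lie on the other strand). Phgdh is at chr3:98339920-98340219 on the minus strand, Mthfd2 at chr6:83317555-83317854 on the minus strand, Mthfd1l at chr10:3972825-3973124 on the plus strand and Shmt2 at chr10:127522395-127522694 on the minus strand.
Phgdh: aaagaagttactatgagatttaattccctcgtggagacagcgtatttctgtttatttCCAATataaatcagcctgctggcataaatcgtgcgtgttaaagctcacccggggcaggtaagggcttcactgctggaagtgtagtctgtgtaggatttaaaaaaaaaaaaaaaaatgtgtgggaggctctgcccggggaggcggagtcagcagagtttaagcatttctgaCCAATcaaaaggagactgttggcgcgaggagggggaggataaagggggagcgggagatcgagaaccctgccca
Mthfd2: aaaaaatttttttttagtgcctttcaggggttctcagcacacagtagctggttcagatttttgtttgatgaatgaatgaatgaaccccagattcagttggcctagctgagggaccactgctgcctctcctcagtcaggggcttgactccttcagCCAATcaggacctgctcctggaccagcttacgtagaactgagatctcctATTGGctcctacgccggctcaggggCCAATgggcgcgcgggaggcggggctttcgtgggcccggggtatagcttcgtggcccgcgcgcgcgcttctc
Mthfd1l: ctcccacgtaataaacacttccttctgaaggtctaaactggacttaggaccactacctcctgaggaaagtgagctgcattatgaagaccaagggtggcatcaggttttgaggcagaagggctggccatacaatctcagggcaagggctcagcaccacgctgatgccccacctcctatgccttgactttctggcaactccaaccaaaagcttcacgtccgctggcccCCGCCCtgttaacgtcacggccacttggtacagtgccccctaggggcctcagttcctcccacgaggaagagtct
Shmt2: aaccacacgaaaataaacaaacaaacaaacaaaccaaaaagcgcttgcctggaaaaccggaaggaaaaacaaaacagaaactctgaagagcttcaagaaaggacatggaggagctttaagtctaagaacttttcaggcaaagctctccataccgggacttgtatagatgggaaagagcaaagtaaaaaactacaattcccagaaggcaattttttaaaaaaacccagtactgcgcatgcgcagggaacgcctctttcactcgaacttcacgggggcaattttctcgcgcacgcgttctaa
Of the 9 genes, 8 matched the table, with 9 windows in all because Psat1 has 2, and Aldh1l2 is named only. CCAAT, the core of the box bound by NF-Y, occurred 2 times for Phgdh and 3 times for Mthfd2, and not for Mthfd1l or Shmt2. Among genes that did not pass, it occurred for Psat1 (3, all in 1 of its 2 windows), Psph (2), Shmt1 (1) and Mthfd1 (1). At least 1 copy is found in 37.4% of all 32851 windows of this length. GGGCGG, the core of the GC box bound by SP1, occurred once for Mthfd1l and not for Phgdh, Mthfd2 or Shmt2, against 35.7% of all windows. It also occurred for Shmt1 (4), Psph (3), Psat1 (2, in the other window) and Mthfd1 (1). TGATGNAAN, the letters of the C/EBP-ATF response element, and CACGTG, an E-box, were searched on both strands and matched no window of these genes. They were present in 3.95% and 7.15% of all windows. The window of Asns, a known ATF4 target described below, holds the first of them as TGATGAAAC, 23 bases before the gene start. A match or its absence describes only the letters of these windows.

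The 2 forms of sample title were fitted apart, with 2 KO and 2 WT animals in each. Phgdh differed by 1.03 (log2) with the E and 0.997 without it, Mthfd2 by 1.60 and 1.56, and Mthfd1l by 1.12 and 1.36. Shmt2 differed by −0.26 and −0.23, so each of these 4 genes had the same sign in both forms. In the animals with the E only Mthfd2 passed (edgeR, adjusted p = 0.0484), with Phgdh at 0.0557, Mthfd1l at 0.0697 and Shmt2 at 0.209. In those without it Phgdh, Mthfd2 and Mthfd1l passed and Shmt2 did not (edgeR, adjusted p = 0.0503), and the 1 gene called lower there was Mthfd1. Psat1 differed by 0.20 with the E and by 0.88 without it. With the title form as a term in the fit, Psat1 passed (log2 fold change 0.54, edgeR, adjusted p = 0.0449), and it passed in the animals without the E (edgeR, adjusted p = 0.00204) but not in those with it (0.443). The difference between forms was tested as an interaction, and Psat1 did not pass (edgeR, adjusted p = 0.713). No gene of 16060 passed that test after adjustment in edgeR, the 1 tool run for it, with 1035 at an unadjusted p under 0.05. The title form and its origin were not described in the labels, and its part in the Psat1 result was not tested beyond this. In the animals without the E, both KO share 1 title number and both WT share another. Genotype cannot be told apart from that number in that fit.

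**Figure D3:**
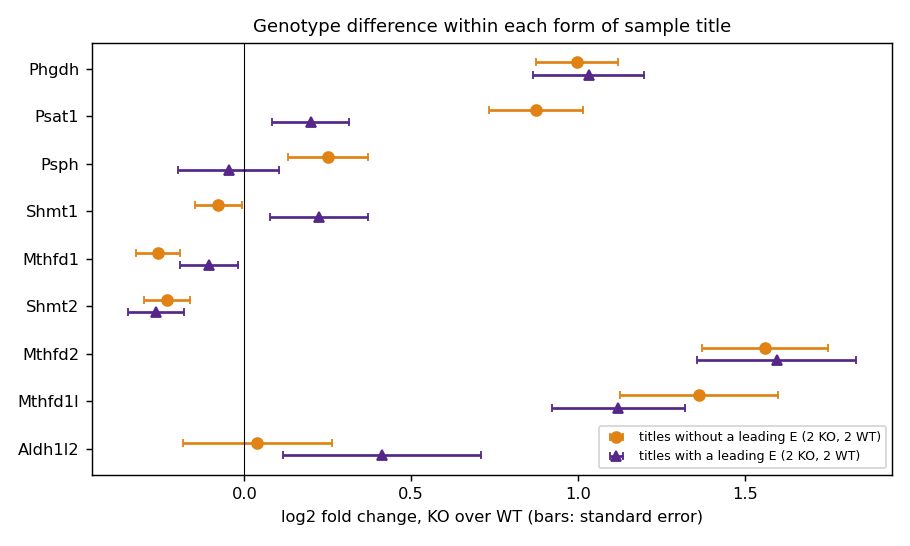
Log2 fold change of KO over WT for each of the 9 genes, fitted apart in animals whose titles have a leading E and in those whose titles lack it (2 KO and 2 WT in each fit), with bars for the standard error, circles for titles without the E and triangles for titles with it. Psat1 shows the widest gap between the forms, at 0.20 and 0.88, and the values of Phgdh, Shmt2 and Mthfd2 lie close together.

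The other genes of the pathway were described next, in 11 lists with 84 tested genes besides the 9. Of these, 12 were called higher and 12 lower in KO, against 6.32% and 4.68% of all genes tested. With 1 library left out the count of lower genes was 5 without WT replicate 3, 6 or 7 without WT replicates 1 or 2 or KO replicates 1, 2 or 3, and 11 or 12 without replicate 4 of either group. Among the other cytosolic folate enzymes, 1 of 8 rose and 2 fell, and the list median was −0.07 (log2). Ggh, which removes glutamate from folates, rose by 0.72, while Aldh1l1 and Fpgs, which adds glutamate to folates (−0.43), were lower. The mitochondrial folate and serine entry list had 2 of 9 lower and none higher, with a median of −0.07. They were Dmgdh, the dimethylglycine dehydrogenase (−0.44), and Sfxn3, a homologue of the mitochondrial serine carrier (−0.33), whose call was kept in only 1 of the 8 fits that leave out 1 library. Mthfd2l, the close relative of Mthfd2, was read at 3.6 ± 0.296 CPM in KO, against 2.62 ± 0.353 CPM in WT, and did not pass (log2 fold change 0.45, edgeR, adjusted p = 0.0853). None of the 4 glycine cleavage genes passed, with Gldc, the glycine decarboxylase, at 0.55 (edgeR, adjusted p = 0.130) and Gcsh, the carrier protein, at −0.06 (adjusted p = 0.497).

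Genes that take up folate or use one-carbon units moved in both directions. Of 3 folate uptake genes, Slc19a1, the reduced folate carrier, was higher by 0.39 and Folr1, the folate receptor of the proximal tubule, lower (−0.22), and both calls were lost in most fits that leave out 1 library. In the methionine cycle and transsulfuration, 5 of 10 fell and none rose, with a median of −0.30. Ahcy, which hydrolyses S-adenosylhomocysteine, was read at 315 ± 12.7 CPM in KO, against 455 ± 35.7 CPM in WT (log2 fold change −0.53, edgeR, adjusted p = 0.000737). The homocysteine methyltransferase gene Bhmt2 fell by 0.44 on the log2 scale. These 2 calls were kept in all 8 fits that leave out 1 library. Bhmt (−1.36, at 1.65 ± 0.626 CPM in KO, against 4.22 ± 1.55 CPM in WT), Gnmt (−0.41) and Cbs (−0.43) each lost the call in 4 to 6 of them. Among 6 purine synthesis genes Atic was higher (0.35) and Paics lower (−0.24), and among 6 genes at the 3-phosphoglycerate branch point Grhpr was lower (−0.27), all 3 with calls lost in 5 or more of those fits.

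Among 9 tested genes that use serine or glycine, Sptlc2, a subunit of the serine palmitoyltransferase that starts sphingolipid synthesis, rose by 0.72 (142 ± 6.15 CPM in KO, against 86.4 ± 11.3 CPM in WT, edgeR, adjusted p = 0.000637). The other 8 did not pass. Of 7 serine and glycine transporters, 1 was called, the glycine transporter gene Slc6a9 (0.29), and that call was lost in 6 of the 8 fits that leave out 1 library. Exons of Dmgdh, Fpgs, Paics, Slc6a9 and Atf5 overlap those of another gene over 1.41 to 7.22% of their length for the largest overlap of each, so their counts are uncertain. Reads in the shared bases were not measured here.

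Phgdh, Psat1, Psph, Shmt2, Mthfd2, Mthfd1l and Aldh1l2 are known as targets of ATF4, a transcription factor of amino acid and mitochondrial stress. Of these, Phgdh, Mthfd2 and Mthfd1l were called higher and Shmt2 lower, while Psat1, Psph and Aldh1l2 did not pass. Of 17 other ATF4 regulators and targets, 6 rose and none fell, and the median over the list was 0.29 (log2). Over all genes tested, 6.32% were called higher and 4.68% lower. Asns, the asparagine synthetase, was read at 21.8, 17.6, 20.4 and 17.3 CPM in KO and at 5.47, 5.43, 4.13 and 6.07 CPM in WT. The groups were far apart, with a log2 fold change of 1.88 (SE 0.13, edgeR, adjusted p = 2.32e-05). Atf5 (1.06), Trib3 (1.21) and Slc3a2 (0.60) rose as well, and the calls of these 4 were kept in all 8 fits that leave out 1 library. The other 2 were Eif2ak3, a kinase that acts upstream of ATF4 (0.29), whose call was lost without WT replicate 3, and Slc7a11, the cystine transporter (0.77), whose call was lost without KO replicate 1, KO replicate 2 or WT replicate 2. Atf4 itself was read at 107 ± 22.3 CPM in KO, against 98.9 ± 6.45 CPM in WT, and did not pass (log2 fold change 0.12, edgeR, adjusted p = 0.633). Of 5 MYC and NRF2 regulators Myc rose (27.8 ± 6.00 CPM in KO, against 13.8 ± 3.78 CPM in WT, log2 fold change 1.01, edgeR, adjusted p = 0.0105), and the other 4 did not pass. Myc protein is also known to act on genes of serine synthesis and of mitochondrial folate metabolism. Whether ATF4 or Myc had a part in these changes was not tested.

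**Figure D4:**
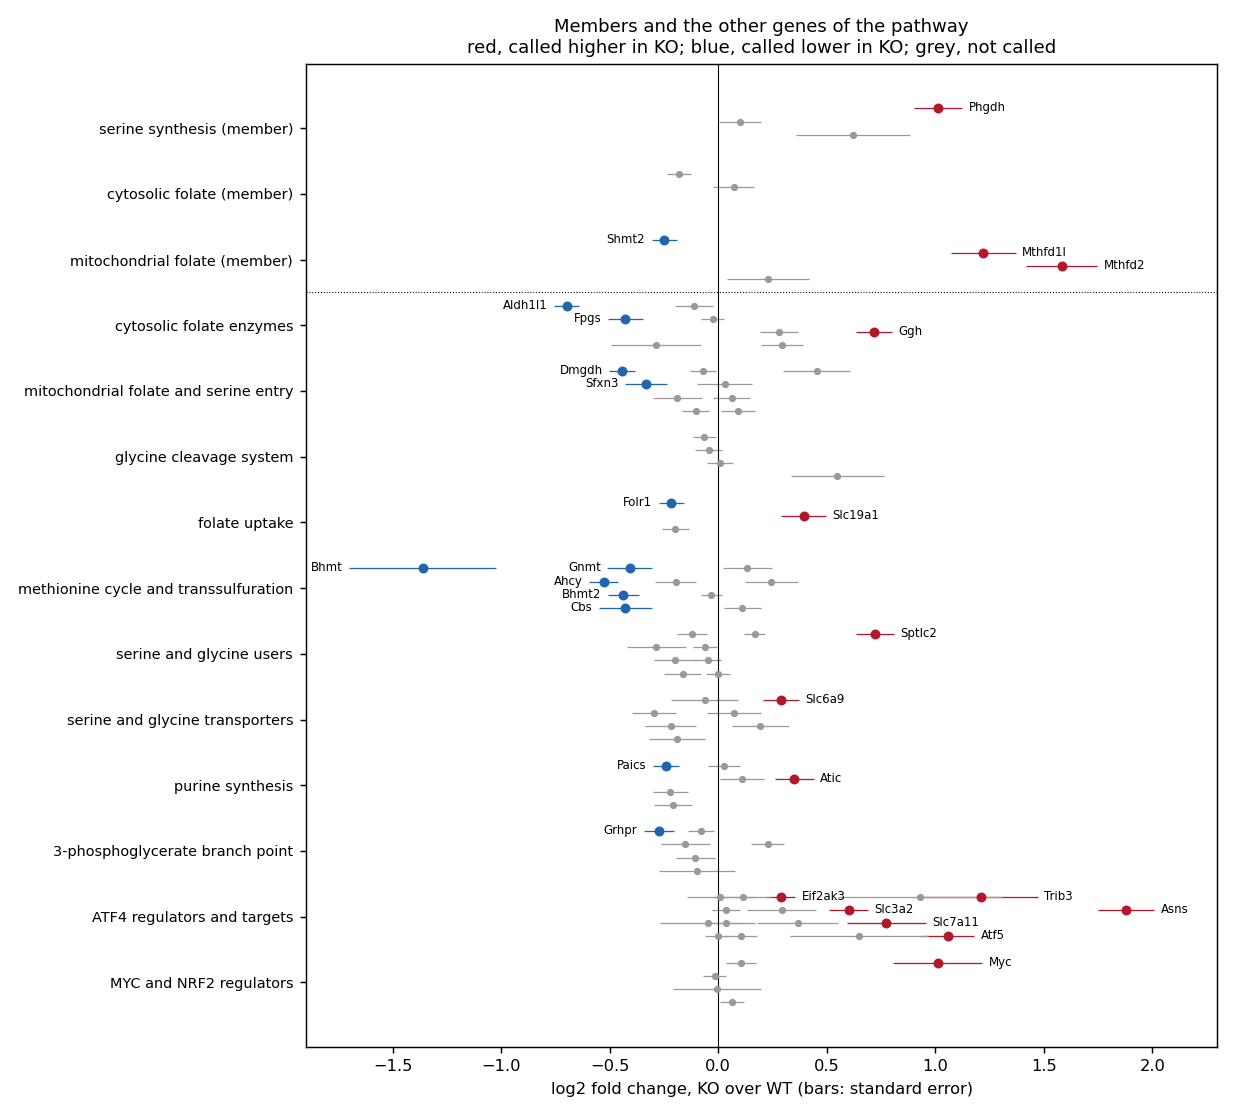
Log2 fold change of KO over WT for the 9 genes (above the dotted line) and the other pathway genes by list (below it), with bars for the standard error; red marks genes called higher in KO, blue those called lower and grey those not called. Mthfd2, Mthfd1l and Phgdh lie at 1.58, 1.22 and 1.01, and the methionine cycle list has 5 genes on the lower side.

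Markers of cell types and states moved with genotype in the same libraries. Over all genes tested, 6.32% were called higher and 4.68% lower in KO, and KO and WT libraries did not overlap for 17.7%. Of 9 injured tubule markers 6 rose and none fell, and their sum was 1225 to 2065 CPM in KO, against 979 to 1330.1 CPM in WT. Spp1 was the most abundant of the 9. The other 8 summed to 553 to 745 CPM in KO, against 489 to 712 CPM in WT, which overlapped. Havcr1 was read at 44.5 ± 20.7 CPM in KO, against 1.80 ± 0.564 CPM in WT. Sox9 stood at 11.6 ± 4.21 CPM in KO, against 0.602 ± 0.202 CPM in WT. KO and WT libraries did not overlap for Havcr1 or Sox9. Clu (−0.45) and Krt18 (−0.33) had negative log2 fold changes and did not pass. Of 11 cycling markers 5 rose and none fell, with sums of 98.0 to 111 CPM in KO, against 87.1 to 91.7 CPM in WT. Of 12 proximal tubule markers none rose and 4 fell, with sums of 29681 to 35461 CPM in KO, against 39724 to 40589 CPM in WT. The sums of KO and WT overlapped for the injured tubule markers and did not for the cycling and proximal tubule markers. Kap, an androgen-responsive transcript of the proximal tubule, made up much of the last sum, and without it the other 11 summed to 12413 to 15075 CPM in KO, against 14422 to 15722 CPM in WT, which overlapped. Of 7 collecting duct markers all 7 fell, with sums of 363 to 400.1 CPM in KO, against 539 to 869.6 CPM in WT. Of 7 markers of the thick ascending limb and distal tubule 3 fell, with sums of 2757 to 3997 CPM in KO, against 3569 to 4165 CPM in WT. Among 9 tested leukocyte markers 1 rose and 1 fell, at sums of 202 to 345 CPM in KO, against 164 to 189 CPM in WT. The leukocyte sum was higher in KO through Cd74, the invariant chain of MHC class II, at 155 to 293 CPM in KO, against 95.7 to 118 CPM in WT. Without Cd74 the other 8 summed to 46.1 to 55.1 CPM in KO, against 67.2 to 71.4 CPM in WT, so the direction turned, with no overlap either way. Csf1r made up most of this second sum and was the 1 marker called lower. It was read at 36.7 ± 4.07 CPM in KO, against 57.3 ± 1.13 CPM in WT, and the rest of those 8 did not pass. The collecting duct sums did not overlap with or without Aqp2, the most abundant gene of that list. The sums of the thick ascending limb and distal tubule overlapped, and without Umod they did not (1322 to 1773 CPM in KO, against 1863 to 2248 CPM in WT). Of 7 fibroblast and mural markers 2 fell, with sums of 131 to 179 CPM in KO and 174 to 195 CPM in WT, and of 6 endothelial markers 1 fell, with sums of 99.7 to 147 CPM in KO and 135 to 169 CPM in WT. None of 5 podocyte markers passed, with sums of 179.9 to 226 CPM in KO and 175 to 215 CPM in WT. With 1 library left out, 1 to 4 of the 4 proximal tubule calls, 1 to 3 of the 3 thick ascending limb and distal tubule calls and 3 to 5 of the 5 cycling calls were kept. The fewest proximal tubule and distal calls were kept when replicate 1 or 2 of KO or replicate 1 or 3 of WT was left out, and the fewest cycling calls without KO replicate 1 or WT replicate 3. The call of 1 fibroblast and mural marker was lost in 6 of these 8 fits and that of the endothelial marker in 7, while 5 or 6 of the injured tubule calls, 6 or 7 of the collecting duct calls and both leukocyte calls were kept. No marker was at 0 in all 8 libraries. The rises of Phgdh, Mthfd2 and Mthfd1l and the fall of Shmt2 came with these shifts, and the part of cell types in them was not tested.

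The single DBA_2J and 129S2_SvPasCrl libraries were set beside the 4 WT libraries by size alone, since a strain with 1 animal has no replicate error. In DBA_2J, 6 of the 9 genes lay outside the WT range, against 72.5% of all genes tested, and in 129S2_SvPasCrl 8 of 9 did, against 64.7%. Since most genes of a single library fall outside the range of 4 others, these counts are given as background and not as a result about the 9 genes. Psat1 was the 1 gene that lay at least 1 log2 unit from the WT mean in both strains, at 27.7 CPM in DBA_2J, 30.7 CPM in 129S2_SvPasCrl and 54.04 to 92.3 CPM in WT. Aldh1l2 was also that far below in DBA_2J, at 1.73 CPM, but not in 129S2_SvPasCrl, at 5.50 CPM, with WT at 3.26 to 4.90 CPM. Such distances were seen in 12.9% of all genes tested for DBA_2J and 9.78% for 129S2_SvPasCrl.

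The 3 genes that rose in KO were placed unequally in the other strains. Phgdh was read at 11.5 CPM in DBA_2J and 15.7 CPM in 129S2_SvPasCrl, and Mthfd2 at 2.08 and 2.89 CPM, all under the lowest KO library. Mthfd1l was read at 4.46 CPM in DBA_2J and 3.48 CPM in 129S2_SvPasCrl, above all 4 WT libraries (at most 2.56 CPM) and below all 4 KO libraries (at least 4.98 CPM). Shmt2 was higher in both strains than in any WT library, at 444 CPM in DBA_2J and 369.7 CPM in 129S2_SvPasCrl, and so was Mthfd1, at 319.7 and 329 CPM. For these 2 genes the strain libraries and the KO libraries lay on opposite sides of WT. Shmt1 was read at 46.9 CPM in DBA_2J and 97.1 CPM in 129S2_SvPasCrl, so Shmt2 per kb was 849% of Shmt1 in DBA_2J and 341% in 129S2_SvPasCrl, outside the WT range on both sides. Psph was read at 15.6 CPM in DBA_2J and 18.2 CPM in 129S2_SvPasCrl, the second above all WT libraries.

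The genes whose pattern was most like that of Phgdh, Mthfd2 and Shmt1 were found by the root mean square difference of mean-centred log2 CPM over the 10 libraries. Nearest to Phgdh were Sox4 (0.147), Map1b (0.176) and Lgals3bp (0.206). Nearest to Mthfd2 were Serpinb6a (0.217), Plekho1 (0.223) and Klf6 (0.231). Near to Shmt1 were Tfb1m (0.113) and Gpd1l (0.115). These distances are descriptions, over 10 libraries whose genes share depth and cell makeup.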

How the data were processed

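Kidney RNA was captured by its polyA tail and sequenced as single-end reads, per the labels' protocols. The submitters' processing notes name STAR, featureCounts, edgeR and the build mm10 (GRCm38). Per the file headers, featureCounts 1.5.2 summed primary alignments over exons by gene, gave a read over several genes to each, and set no strand option, so genes that overlap on either strand share reads. The authors deposited raw counts per gene and, for 13645 genes, log2 values that equalled log2 CPM with TMM scaling to within 4.97e-14.

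Counts of the 4 KO and 4 WT libraries entered 1 model of genotype in edgeR 4.0.16 under R 4.3.3, with its filterByExpr filter, scaling by TMM and its quasi-likelihood F test, adjusted by Benjamini-Hochberg over 15547 genes. CPM use TMM scaling over all 10 libraries. The coefficient of biological variation was 12.3%. Every pair of replicates differed beyond sampling noise, with a chi-square of 11.05 or more per degree of freedom. The labels give no litter or cage, and the p-values treat the animals as independent. Some animals of a genotype share a title number, and what that number marks cannot be told apart from genotype. Replicate numbers follow accession order.

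Alternatives were other scalings, no filter, DESeq2 1.42.0, limma 3.58.1 on the deposited log2 values, the title form, thinning, all 10 libraries, a prior count of 0.5 in place of 2, and leaving out 1 library. The test of the title form against genotype and the marker sums without the most abundant gene were chosen after seeing the data. The 9 genes and all lists were chosen with earlier results of these data known. Named genes are the 9, the pairs of the ratios, Ehhadh, up to 4 called genes per pathway list by smallest p (up to 2 where none was called) and the 3 nearest genes for Phgdh, Shmt1 and Mthfd2. Of these, 1 gene that this rule picks is not reported here. Cbs, Mthfd2l, Atf4, Eif2ak3 and Slc7a11 were added after their values were seen. Of 157 list symbols, 156 matched directly and 1 by an older name. Marker lists are given by counts and sums. Kap, Spp1, Cd74, Umod and Aqp2 are named as the most abundant genes of their lists. Havcr1, Sox9, Clu, Krt18 and Csf1r were named after their values were seen.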

Additional observations from a re-analysis of the deposited data

Results flagged for a closer look

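In 2 of 28 groups of 4 libraries, 1 library lay far from the other 3, where chance gives about 1 such group in 20. Both concern Shmt1. KO replicate 4 was read at 64.6 CPM, with the other KO libraries at 56.6 to 57.04 CPM, and WT replicate 4 at 44.7 CPM, with the other WT libraries at 59.1 to 60.3 CPM. Without WT replicate 4 the log2 fold change of Shmt1 was −0.02, against 0.07 with all 8 libraries, and neither passed in edgeR.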

How the results depend on the processing

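The rises of Mthfd2, Mthfd1l and Phgdh kept their direction in all 18 alternatives. The number of the 9 genes called higher was 3 in every fit that leaves out 1 library, 4 with the title form as a term and in animals without a leading E, and 1 in animals with it, a fit of 2 against 2. The number called lower was 2 in DESeq2 and with upper quartile scaling, 0 in animals with a leading E, and 0 to 2 with 1 library left out (0 without replicate 1 or 2 of KO and without replicate 3 or 4 of WT, and 2 without KO replicate 4). Of the other pathway genes, 5 to 12 were called lower with 1 library left out (5 without WT replicate 3, 6 for each of replicates 1 and 2 of either genotype, and 7 without KO replicate 3), against 12 in the full fit, and 8 to 13 were called higher (8 without WT replicate 3). Psat1 had log2 fold changes of 0.37 to 0.79 with 1 library left out, lowest without KO replicate 2. The sign turned for Psph in animals with a leading E (−0.047) and for Shmt1 in animals without it (−0.078) and without WT replicate 4 (−0.022, in a range to 0.11 over libraries left out), all small values that did not pass. The 4 branch ratios kept their direction in all 12 alternatives each. The cause of these changes was not tested. No paired analysis was possible because the replicate numbers follow accession order. Depth limits Mthfd1l, Mthfd2 and Aldh1l2 most, as the least abundant of the 9.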

Other observations

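Gldc, the glycine decarboxylase of the glycine cleavage system, was picked after its values were seen and is set beside Psat1. It was read at 188, 235, 123 and 119 CPM in KO, 44.6 CPM in DBA_2J, 52.7 CPM in 129S2_SvPasCrl and 129, 104, 86.5 and 137 CPM in WT. KO replicates 1 and 2 held the highest levels of both genes among KO and WT. WT replicate 4 had the highest Gldc of WT and the lowest Psat1 of KO and WT. Both strain libraries lay below every WT library for both. Cbs, which starts transsulfuration by joining serine to homocysteine, stood on the other side of WT in the strain libraries, at 458 CPM in DBA_2J, 471 CPM in 129S2_SvPasCrl and 158 to 204 CPM in WT, with 114 to 167 CPM in KO.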
